A study of Mus musculus with 8 samples.

Results

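Erythro-myeloid progenitors (EMPs) are the cells described here, taken as every cell that the deposited annotation names EMP in a CITE-seq experiment on CD31+ cells of the mouse aorta-gonad-mesonephros (AGM) region. They numbered 747 of 15168 cells, with 390 of 8423 cells in 5 WT libraries and 357 of 6745 cells in 3 Meis1-flox/VE-Cre libraries. All embryos were at embryonic day 10.5, and each library pooled cells of 2 to 5 embryos. The labels give C57BL/6 as the strain of the WT embryos. For the others they give the strain Meis1-flox/VE-Cre with the genotype Meis1-knockout, so that strain and deletion cannot be told apart. By the study's description, a Cre recombinase under the VE-cadherin promoter, which is active in endothelium, removes an internal exon of Meis1, so that blood cells carry the deletion only where they descend from cells in which Cre acted. WT 1 to WT 5 and Meis1-flox/VE-Cre 1 to 3 are used below as names of the libraries, by replicate number. Cell names of WT 5 begin with Mf, unlike those of the other WT libraries. In its deletion experiments the study uses WT for Meis1-flox littermates without Cre. Whether WT 5 came from such littermates is not stated.

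EMPs arise from hemogenic endothelium of the yolk sac, ahead of the hematopoietic stem cells of the aorta, and give rise to erythroid cells, megakaryocytes, macrophages, granulocytes and mast cells of the embryo. Meis1 is a homeodomain transcription factor of the TALE class that binds DNA together with other homeodomain proteins. In blood it is known for its part in stem cells, in megakaryocytes and, with Hoxa9, in leukemia. Meis2 and Meis3 are its close relatives and recognize a like sequence.

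The libraries fell into a deep class, WT 1 to 4, and a shallow class, WT 5 and the 3 Meis1-flox/VE-Cre libraries. Median UMIs per EMP cell were between 47527 and 53132 in WT 1 to 4, 21434 in WT 5, and from 14516 to 20501 in the 3 Meis1-flox/VE-Cre libraries. On the first principal component of EMP sums, which held 39.5% of the variance, WT 1 to 4 lay between -31.48 and -14.89, WT 5 at 10.89 and the Meis1-flox/VE-Cre libraries between 24.19 and 25.81. Depth and genotype therefore cannot be told apart for WT 1 to 4, and WT 5 alone is a WT library of like depth, so the main results are also given against WT 5 alone. No barcode was shared between EMP cells of different libraries, where 0 pairs were found against 33 pairs among all cells. Of 9 EMP markers, 8 ranked highest or second highest in the EMP cells among 10 cell types, with Myb, Gata2 and Csf2rb highest there, whereas Cd34 ranked low.

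Markers of other blood cells were present in the EMP sums and some moved with genotype. The summed level of 6 mast cell and basophil markers was 52.4 to 139 CPM (counts per 1000000 UMIs) in WT and 208 to 295 CPM in Meis1-flox/VE-Cre, with Mcpt8 and Tpsb2 at 0 in every library. For 6 erythroid markers the sum was 6.3 to 213 CPM in WT against 313 to 1850 CPM, which do not overlap either. The ranges overlapped for 6 myeloid markers, at 10.5 to 44.1 CPM and 39.0 to 69.3 CPM, for neutrophil markers, at 28.1 to 358 CPM and 41.5 to 945 CPM with Ltf at 0, and for megakaryocyte markers, at 76.0 to 195 CPM and 103 to 137 CPM. The part of these cells in the results below was not tested.

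The share of EMP cells among all cells overlapped between the genotypes. The WT libraries held 3.84, 5.19, 5.84, 3.96 and 5.25% EMP cells, and the Meis1-flox/VE-Cre libraries 4.48, 6.00 and 5.34%. The groups overlapped and their means differed by 0.46 percentage points (exact permutation test over libraries, two-sided, p = 0.411, smallest possible p = 0.0179), and by 0.02 percentage points from WT 5 alone. As a share of EMP, EHT, Myeloid and Megakaryocyte cells, EMP cells were 4.62 percentage points lower in Meis1-flox/VE-Cre (exact permutation, p = 0.464), so the sign of this small difference depended on the denominator.

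To ask which genes of EMP cells differ with the genotype, UMI counts were summed per library and compared, 5 WT against 3 Meis1-flox/VE-Cre libraries and then WT 5 alone against the same 3. In the first comparison 435 of 9172 genes passed an adjusted p under 0.1 in edgeR's quasi-likelihood test, of which 246 (2.68% of genes tested) were higher and 189 (2.06%) lower in Meis1-flox/VE-Cre. Values of the groups did not overlap for 384 of the 435 genes, and for 11.7% of all genes tested. In the second comparison 50 of 9381 genes passed, with 39 (0.416%) higher and 11 (0.117%) lower. Both comparisons share the 3 Meis1-flox/VE-Cre libraries and WT 5, and are given side by side. The median log2 fold change of all genes was -0.003 in the first and 0.015 in the second. The first count depended on single libraries, falling to 44 without Meis1-flox/VE-Cre 1 and rising to 828 without WT 5, and it was 7 with depth class as a covariate, among them Ifitm1, Ifitm2, Cd200r3, Cited2, S100a10 and Tyrobp. In sums over cells, fewer cells that make an RNA and less RNA per cell cannot be told apart. Replicates are named as separate libraries only, so that p-values measure the spread between pools as prepared here.

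Meis1 itself was lower in every Meis1-flox/VE-Cre library, although its RNA did not vanish. The 5 WT libraries held 73.3, 59.5, 57.6, 68.5 and 66.0 CPM in their EMP cells, and the 3 Meis1-flox/VE-Cre libraries 21.3, 37.0 and 26.8 CPM. All WT libraries, the shallow one included, lay above all Meis1-flox/VE-Cre libraries. The log2 fold change was -1.2 ± 0.17 (SE, edgeR, adjusted p = 0.00663) and the call held when any 1 library was left out. Against WT 5 alone the value was -1.2 ± 0.26 (adjusted p = 0.0836), which was lost when called doublets were left out (adjusted p = 0.17). With all cells brought to 5000 UMIs, 23.7 to 27.2% of WT EMP cells held Meis1, against 13, 15.6 and 17.3% of Meis1-flox/VE-Cre EMP cells (exact permutation, p = 0.0179, the smallest possible). In venous endothelial (vEC) cells, where Meis1 was at 1.4 to 10.8 CPM, the share was 1.33 to 3.33%, so the remaining Meis1 RNA lay above that background. The libraries read the 3′ end of transcripts, outside the deleted exon, and the counts therefore do not show how many EMP cells carried the deletion.

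Meis2, the paralog of Meis1, was detected almost entirely in Meis1-flox/VE-Cre EMP cells. Over the EMP cells of a library, the 5 WT libraries gave 0, 0, 1, 3 and 0 UMIs, and the 3 Meis1-flox/VE-Cre libraries gave 47, 12 and 24. The UMIs came from 4 of 390 WT cells and 28 of 357 Meis1-flox/VE-Cre cells, and the fullest cell held 14.9, 33.3 and 58.3% of them in the 3 Meis1-flox/VE-Cre libraries. The fitted log2 fold change of 5.66 ± 0.68 (edgeR, adjusted p = 0.00457) rests on a near-absent WT level and is no measure of size. Meis2 was abundant enough to test only through the Meis1-flox/VE-Cre libraries, so its call is no independent support. Against WT 5, where no Meis2 UMI was found and 3 counts were taken as the limit, the pooled level of 12.7 CPM was at least 11.4-fold higher. After thinning, 3.40 to 10.0% of Meis1-flox/VE-Cre EMP cells held a Meis2 UMI, below the 11.3 to 16.3% of vEC cells, which held the gene at 11.7 to 106 CPM over vEC_1 to vEC_4. Against WT 5 the call (adjusted p = 0.0671) was lost when called doublets were left out (0.124). The 28 Meis1-flox/VE-Cre EMP cells with a Meis2 UMI held a median of 1.96 endothelial list UMIs per 10000 (quartiles 1.2 and 2.72), and the 329 without one held 1.15 (0.667 and 2.01). Their median of UMIs of 28 EMP and progenitor genes was 24.8 per 10000, against 22 in the others. Whether RNA of other cells contributed to these counts was not tested.

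Of 22 TALE and Hox genes listed, 9 were abundant enough to test, and Meis1 fell and Meis2 rose while 7 were not called. Meis2 was abundant enough only through the Meis1-flox/VE-Cre libraries. Hoxa9 was too low for the test, at 0 to 9.13 CPM in WT and 0.937 to 2.72 CPM in Meis1-flox/VE-Cre. Of 19 genes described as targets of Meis1 or Hoxa9 in blood cells, 12 were abundant enough to test. Only Trib2 was called in the first comparison. The untested targets, Flt3 among them, were too low for the test, so nothing is said of their change. Trib2, a pseudokinase, was at 2.07 to 7.16 CPM in WT and 0.468 to 1.36 CPM in Meis1-flox/VE-Cre (log2 fold change -2.29 ± 0.59, adjusted p = 0.0728). Its difference from WT 5 was -2.84 with an adjusted p of 0.271, and its call was lost without any 1 of the 3 Meis1-flox/VE-Cre libraries or WT 1, with adjusted p up to 0.233. Against WT 5 the list's 1 call was Pf4, described below. The median log2 fold change of these 12 genes was -0.17, beside -0.003 over all genes.

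**Figure D1:**
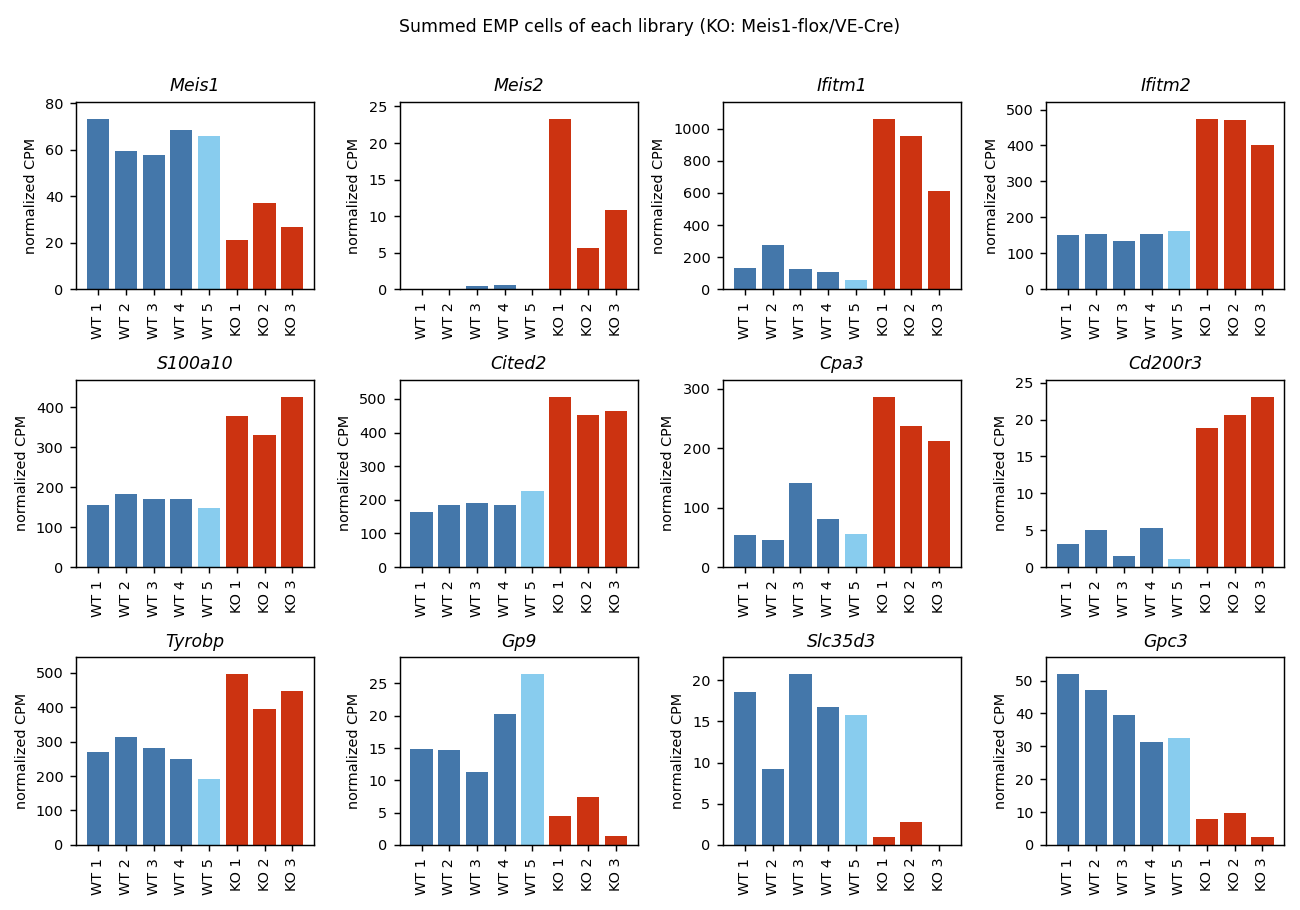
Level of 12 genes in the summed EMP cells of each library, in TMM-normalized CPM on linear axes that start at 0. Dark blue bars are WT 1 to 4, the light blue bar is WT 5 and red bars are Meis1-flox/VE-Cre (KO) 1 to 3. The 5 WT libraries lie on 1 side of the 3 Meis1-flox/VE-Cre libraries in every panel. All 12 genes were called and some were named because their groups were apart, so this separation follows from the choice of genes. Groups were apart for 11.7% of all genes tested.

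Ifitm1 and Ifitm2, neighbouring genes for interferon-induced transmembrane proteins that restrict virus entry, were among the clearest rises. For Ifitm1 the WT libraries held 132, 273, 125, 107 and 56.5 CPM, and the Meis1-flox/VE-Cre libraries 1060, 954 and 609 CPM. WT 5, which was matched in depth, had the lowest level of all. The log2 fold change was 2.65 ± 0.36 (edgeR, adjusted p = 0.00613) and 3.96 ± 0.34 against WT 5 alone (adjusted p = 0.000201). More cells held the RNA, with an Ifitm1 UMI in 13.5 to 31.6% of thinned WT cells and 47.6 to 60.0% of thinned Meis1-flox/VE-Cre cells, against 0.667 to 3.33% of vEC cells.

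Ifitm2 was nearly level among WT libraries, at 152, 154, 134, 154 and 162 CPM, and was at 474, 470 and 400 CPM in Meis1-flox/VE-Cre. Its log2 fold change of 1.57 ± 0.09 (edgeR, adjusted p = 8.36e-06) was 1.48 ± 0.21 against WT 5 (adjusted p = 0.01). Ifitm3 moved less, from 20.4 to 34.6 CPM in WT to 46.4 to 52.6 CPM (log2 fold change 0.83 ± 0.16, adjusted p = 0.0297), and was called against WT 5 at 1.29 ± 0.25 (adjusted p = 0.0485). Without Meis1-flox/VE-Cre 1 or 3 the Ifitm3 call of the first comparison was lost, with adjusted p up to 0.139, while those of Ifitm1 and Ifitm2 held without any 1 library. No other interferon gene was called in either comparison, and the median of the 6 tested was 0.46 on the log2 scale and 1.29 against WT 5 over 7 genes tested. Bst2, an interferon-induced gene, was at 55.4 to 91.0 CPM in WT and 63.2 to 87.6 CPM in Meis1-flox/VE-Cre.

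The 250 bases before the start of Ifitm1 and Ifitm2, which rose, and of Gp9 and Trib2, which fell, are shown to let their letters be compared. Gp9 and Trib2 were picked because their windows hold TGACAG, the core sequence that Meis proteins bind. They are from RefSeq in build GRCm38.p6, written 5′ to 3′ on the strand of the gene. Capitals mark TGACAG, the Meis core, and the core of the interferon-stimulated response element, GAAA followed by any 2 bases and GAAA, each searched on both strands. Ifitm1 lies at chr7:140967826-140968075 on the plus strand and Ifitm2 at chr7:140955962-140956211 on the minus strand. Gp9 lies at chr6:87777820-87778069 on the plus strand and Trib2 at chr12:15816786-15817035 on the minus strand.
Ifitm1: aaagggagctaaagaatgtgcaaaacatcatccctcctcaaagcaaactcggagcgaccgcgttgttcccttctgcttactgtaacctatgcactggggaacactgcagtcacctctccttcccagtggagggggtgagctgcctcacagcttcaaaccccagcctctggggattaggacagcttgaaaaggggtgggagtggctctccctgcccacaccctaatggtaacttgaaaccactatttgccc
Ifitm2: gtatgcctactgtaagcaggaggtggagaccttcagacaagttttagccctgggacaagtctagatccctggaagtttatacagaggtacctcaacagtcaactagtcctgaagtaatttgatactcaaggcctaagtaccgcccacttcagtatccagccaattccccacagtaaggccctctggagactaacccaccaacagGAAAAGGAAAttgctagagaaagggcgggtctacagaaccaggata
Gp9: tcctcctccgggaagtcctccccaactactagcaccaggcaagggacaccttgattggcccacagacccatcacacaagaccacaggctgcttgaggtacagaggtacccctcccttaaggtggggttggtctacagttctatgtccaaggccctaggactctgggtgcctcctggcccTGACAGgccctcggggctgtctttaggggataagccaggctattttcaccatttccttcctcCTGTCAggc
Trib2: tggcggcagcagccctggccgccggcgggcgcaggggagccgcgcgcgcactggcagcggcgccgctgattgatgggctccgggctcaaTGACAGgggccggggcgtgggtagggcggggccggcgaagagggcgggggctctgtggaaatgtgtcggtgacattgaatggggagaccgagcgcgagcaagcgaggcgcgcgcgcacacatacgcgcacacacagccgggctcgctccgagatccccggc

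The Ifitm1 window held neither motif and that of Ifitm2 held 1 match to the response element core, while the Gp9 window held 2 TGACAG and that of Trib2 held 1. Of 32851 promoter windows of the same length, 15.9% held TGACAG and 2.98% held the response element core. Of all called genes with a window in the table, 22 of 130 that fell (16.9%) and 27 of 185 that rose (14.6%) held TGACAG, both near the share of all promoters. A part of the described genes was also looked at singly. Of 13 falls in that part Gp9 and Trib2 held TGACAG, and of 29 rises Hba-x and F13a1 did. Other described genes, among them Tspo, Hp and S100a10, were not in that part. These are matches of letters and no measure of binding.

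Of 6 tested genes of the mast cell and basophil list, 1 was called, Cpa3, which was higher in Meis1-flox/VE-Cre EMP cells. Cpa3, a protease of mast cell granules, was at 54.8, 46.4, 141, 81.0 and 55.4 CPM in the WT libraries, against 287, 237 and 212 CPM. The groups did not overlap, and WT 3 was the highest WT library. In Meis1-flox/VE-Cre 2 a single cell held 41.0% of the Cpa3 UMIs. The log2 fold change was 1.72 ± 0.28 (edgeR, adjusted p = 0.0157) and 2.15 ± 0.26 against WT 5 (adjusted p = 0.00266). The estimates of all 6 genes were above 0, and 5 were not called. The median of the 6 was 0.26 on the log2 scale and 1.14 against WT 5 over 7 genes tested.

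A few receptor genes that are used by mast cells and basophils, among other cells, were also called. They come from no list and were picked once their values were known, so that they say nothing of such receptors as a group. Ms4a2, the beta chain of the IgE receptor of the same cells and a member of the list, was not called (1.96 ± 0.59, adjusted p = 0.113, and 1.62 against WT 5, 0.557). Cd200r3, an activating receptor, was at 3.15, 5.05, 1.48, 5.26 and 1.13 CPM in WT and 18.8, 20.6 and 23.1 CPM in Meis1-flox/VE-Cre (log2 fold change 2.52 ± 0.33, adjusted p = 0.00613). Against WT 5 it was 4.15 ± 0.52 (adjusted p = 0.00341). Its UMIs came from 38 of 390 and 60 of 357 cells. Cd200r4 rose by 2.24 ± 0.32 (adjusted p = 0.00731), Cd200r1 by 1.19 ± 0.16 (0.00613), Milr1, an inhibitory receptor of mast cells, by 1.05 ± 0.19 (0.0208) and Itgb7, an integrin of mast cell progenitors, by 2.35 ± 0.46 (0.0311). All 4 were also called against WT 5, at 3.06, 1.45, 1.28 and 3.41. Cpa3 and Milr1 lost the call of the first comparison without Meis1-flox/VE-Cre 1 (adjusted p = 0.101 for each), and Itgb7 without Meis1-flox/VE-Cre 1 or 2 (up to 0.156). Fcer1a and Cma1, which mark mature mast cells, were at most 3.47 and 1.49 CPM in any library. The sum of mast cell and basophil markers, at 208 to 295 CPM against 52.4 to 139 CPM, was almost all Cpa3. Before TMM normalization, Cpa3 averaged 76.0 of 78.0 CPM in WT and 239 of 249 CPM in Meis1-flox/VE-Cre. That sum is therefore no support separate from Cpa3. Whether mast cells lay among the cells named EMP was not tested.

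In a further group of rises, Cited2 and S100a10 had similar WT values at both depths, while Ctla2a and Lgals1 varied more among WT libraries. Cited2, a regulator that binds the coactivators CBP and p300, was at 165, 186, 192, 184 and 226 CPM in WT and 507, 452 and 464 CPM in Meis1-flox/VE-Cre (log2 fold change 1.32 ± 0.11, edgeR, adjusted p = 0.000108). S100a10, the partner of annexin A2, was at 154, 182, 170, 169 and 147 CPM in WT and 378, 330 and 426 CPM (1.2 ± 0.11, adjusted p = 0.000206). Both were called against WT 5, at 1.08 ± 0.20 (adjusted p = 0.0428) and 1.38 ± 0.22 (0.0183), and both kept the call without any 1 library. Ctla2a, an inhibitor of cysteine proteases, was at 35.6 to 130 CPM in WT and 207 to 286 CPM (1.61 ± 0.31, and 1.75 against WT 5). Lgals1, the gene of galectin-1, was at 351 to 949 CPM and 984 to 1480 CPM (1.11 ± 0.26, and 1.38 against WT 5). The Ctla2a call was lost without Meis1-flox/VE-Cre 1 or 3 (adjusted p up to 0.114), and that of Lgals1 without 1 or 2 (up to 0.196). Fxyd5 and Itm2b, membrane proteins named after their values were seen, rose by 0.96 ± 0.13 and 0.71 ± 0.11, and by 1.05 and 0.94 against WT 5, where both calls were lost without Meis1-flox/VE-Cre 1 (adjusted p = 0.106 and 0.156).

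For other rises WT 5 lay nearer to the Meis1-flox/VE-Cre libraries and the second comparison did not call them. Cox4i2, an isoform of a cytochrome c oxidase subunit, was at 19.2, 21.6, 34.0 and 22.1 CPM in WT 1 to 4, 54.7 CPM in WT 5 and 124, 96.5 and 109 CPM in Meis1-flox/VE-Cre. Its log2 fold change was 1.90 ± 0.27 (edgeR, adjusted p = 0.00731) and 1.02 ± 0.23 against WT 5 (adjusted p = 0.119). Lgals9, the gene of galectin-9, rose by 1.33 ± 0.18 (adjusted p = 0.00613) with 0.92 against WT 5 (0.192). Psme2, a subunit of the proteasome activator, was at 62.1 to 84.7 CPM in WT 1 to 4, 143 CPM in WT 5 and 161 to 196 CPM in Meis1-flox/VE-Cre (1.04 ± 0.22, and 0.32 against WT 5). The Psme2 call was lost without any 1 of the 3 Meis1-flox/VE-Cre libraries (adjusted p up to 0.139).

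**Figure D2:**
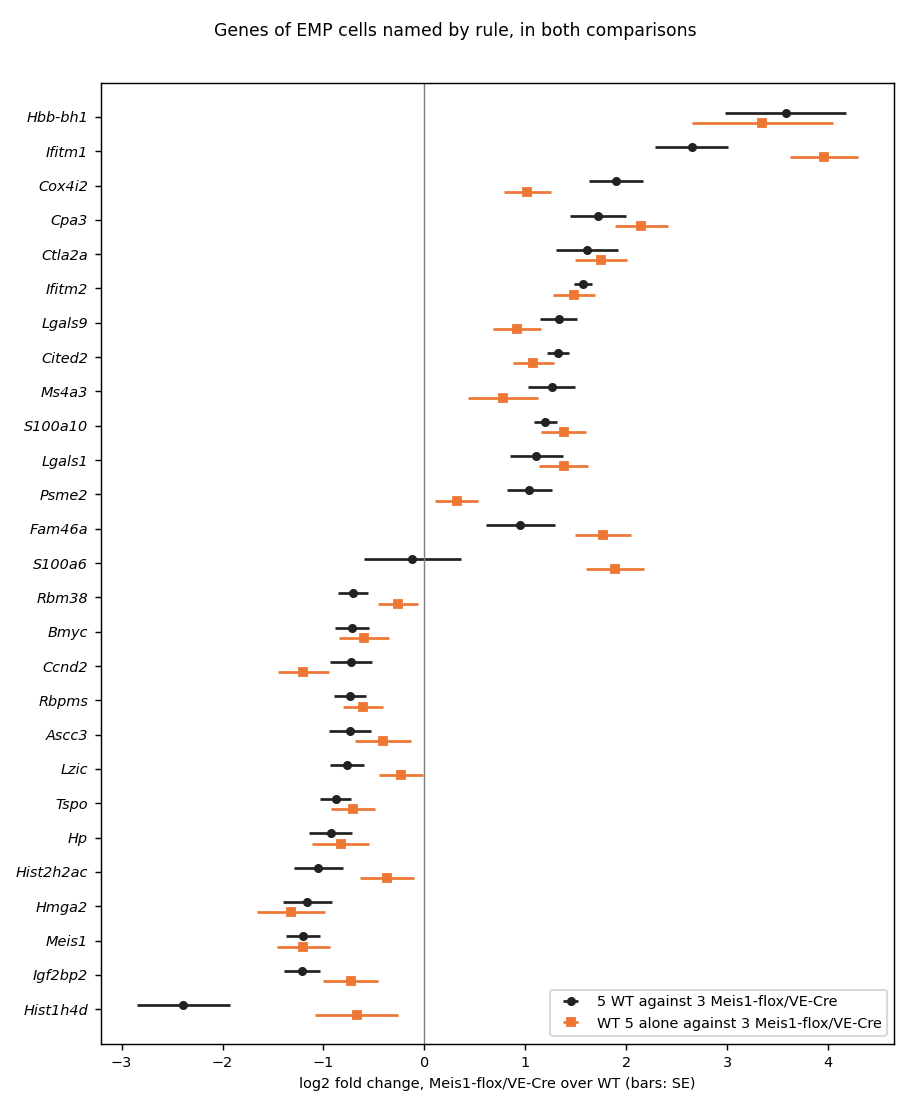
Log2 fold change, Meis1-flox/VE-Cre over WT, of the genes named by size of change in EMP cells. Black circles are 5 WT against 3 Meis1-flox/VE-Cre libraries, orange squares are WT 5 alone against the same 3, and bars are standard errors. Ifitm1, Cpa3 and Cited2 lie to the right of 0 in both, while Hist1h4d moves from -2.39 to -0.67 and Psme2 from 1.04 to 0.32.

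A minority of granulocyte and macrophage genes were called as higher. Of 11 tested granulocyte granule genes, 5 rose and none fell, namely Mpo, Prtn3, Ms4a3, Lyz2 and Srgn, beside the 2.68% of all genes that rose. The list's median log2 fold change was 0.54, and 0.78 against WT 5, where 1 of the 5, Lyz2, was called. Lyz2, the gene of lysozyme, was at 44.4, 36.3, 48.2, 46.6 and 30.2 CPM in WT and 70.4, 73.1 and 61.3 CPM in Meis1-flox/VE-Cre (0.73 ± 0.15, adjusted p = 0.0364). Ms4a3, which marks granulocyte and monocyte precursors, was at 44.3 to 51.9 CPM in WT 1 to 4, 76.5 CPM in WT 5 and 82.6 to 185 CPM in Meis1-flox/VE-Cre (1.26 ± 0.23, adjusted p = 0.0223). Mpo, myeloperoxidase, differed by 0.46 ± 0.13, Prtn3, proteinase 3, by 0.54 ± 0.15 and Srgn, the proteoglycan of granules, by 0.58 ± 0.13. Against WT 5, Mpo (0.82, adjusted p = 0.119), Prtn3 (0.51, 0.811), Srgn (0.80, 0.271) and Ms4a3 (0.78, 0.831) were not called. Without Meis1-flox/VE-Cre 1 all 5 calls were lost, as were those of Mpo, Prtn3, Lyz2 and Srgn without Meis1-flox/VE-Cre 2, with adjusted p up to 0.323. Mpo also lost its call without Meis1-flox/VE-Cre 3 or WT 2, 3 or 4, and Prtn3 without Meis1-flox/VE-Cre 3 or WT 1, 2 or 4.

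Of 14 tested macrophage and monocyte genes, 3 rose and 11 were not called, with a median of 0.64, and 0.47 against WT 5, where 1 of 17 was called. Tyrobp, an adaptor of activating receptors on myeloid cells, was at 270, 314, 280, 250 and 191 CPM in WT and 495, 394 and 448 CPM in Meis1-flox/VE-Cre (0.77 ± 0.14, edgeR, adjusted p = 0.0237). It was 1.23 ± 0.21 against WT 5 (adjusted p = 0.0307). Fcer1g, the common gamma chain of Fc receptors, was at 362 to 501 CPM in WT and 607 to 646 CPM (0.61 ± 0.12, and 0.80 against WT 5, adjusted p = 0.123). F13a1, a transglutaminase of monocytes, rose by 0.90 ± 0.20 and was 1.29 against WT 5 (adjusted p = 0.192). These 3 calls were lost without Meis1-flox/VE-Cre 1, with adjusted p between 0.139 and 0.188. The mean sum of the 6 myeloid markers was 26.5 CPM in WT EMP cells and 50.7 CPM in Meis1-flox/VE-Cre EMP cells, with overlapping ranges. It was 1780 CPM in Myeloid cells of the Meis1-flox/VE-Cre libraries, and the part of these markers was not tested.

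Some hemoglobin transcripts were higher in Meis1-flox/VE-Cre EMP cells, whereas the erythroid regulators were not called. Hbb-bh1, an embryonic beta globin, was at 30.5, 30.8, 0, 62.8 and 41.1 CPM in the WT libraries, against 562, 119 and 568 CPM (log2 fold change 3.58 ± 0.60, edgeR, adjusted p = 0.0162). It was 3.35 ± 0.70 against WT 5 (adjusted p = 0.0748), and this call was lost when called doublets were left out (0.219). Of the 17 erythroid genes tested 5 rose, all of them globins (Hba-x, Hba-a1, Hba-a2, Hbb-y and Hbb-bh1), and the other 12 were not called. Hbb-bt and Hbb-bs, which are also globins of the list, were not among the calls. Against WT 5, Hba-a1 was called (4.13, adjusted p = 0.0873), while Hba-x (3.96, 0.271), Hba-a2 (2.71, 0.373) and Hbb-y (3.70, 0.313) were not. The median over the 17 genes was 1.07, and 0.55 against WT 5 over 18 genes. Gata1 and Klf1, the regulators of the erythroid program, were at 20.2 to 73.3 CPM and 1.97 to 48.4 CPM in WT, and at 50.6 to 71.7 CPM and 20.9 to 42.7 CPM in Meis1-flox/VE-Cre.

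The globin values rested on few cells. For Hbb-bh1, UMIs lay in 130 of 390 WT cells and 117 of 357 Meis1-flox/VE-Cre cells, and 1 cell held 31.6, 27.7 and 38.8% of the UMIs of Meis1-flox/VE-Cre 1 to 3. For Hbb-y, 1 cell held up to 73.6% of a library's UMIs, and its levels of 3.45 to 70.3 CPM in WT and 68.1 to 577 CPM in Meis1-flox/VE-Cre overlapped. In thinned cells a Hbb-y UMI was found in 2.53 to 27.2% of WT and 20 to 30% of Meis1-flox/VE-Cre EMP cells. In vEC cells, which should lack the gene, the share was 3.33 to 34.3%, which the EMP cells did not exceed. For Hbb-bh1 the shares were 0 to 17.5% of WT EMP, 15.6 to 21% of Meis1-flox/VE-Cre EMP and 0.333 to 8% of vEC cells. For Hba-a1 they were 0 to 2.91%, 8.18 to 11.6% and 0 to 5%. The Meis1-flox/VE-Cre EMP shares thus lay above the vEC shares for Hbb-bh1 and Hba-a1, and also for Hba-a2, but not for Hba-x. Without Meis1-flox/VE-Cre 1 the calls of Hbb-bh1, Hba-x, Hba-a2 and Hbb-y were lost (adjusted p from 0.101 to 0.354), and that of Hbb-y also without WT 1. Hbb-bh1 also stood at 2020 to 12200 CPM in Megakaryocytes of the Meis1-flox/VE-Cre libraries, against 0 to 788 CPM in WT, and at 11.9 to 17.7 CPM against 0 to 14.6 CPM in vEC_1 cells. Whether RNA from erythroid cells contributed to the EMP values was not tested.

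Among the falls, Gp9 belongs to the platelet receptor for von Willebrand factor. WT libraries held 14.8, 14.7, 11.3, 20.3 and 26.4 CPM, and Meis1-flox/VE-Cre libraries 4.46, 7.49 and 1.36 CPM. WT 5 was the highest of all libraries, and the groups were apart. The log2 fold change was -1.99 ± 0.41 (edgeR, adjusted p = 0.0358) and -2.56 ± 0.47 against WT 5 (adjusted p = 0.0405). A Gp9 UMI was found in 178 of 390 WT cells and 23 of 357 Meis1-flox/VE-Cre cells, before depth was matched. After thinning the shares were 2.63 to 14.4% and 0.909 to 3.40%, which overlap.

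Slc35d3, AI662270 and Homer2 fell likewise, and are named after their values were seen. Slc35d3, a transporter needed for dense granules of platelets, was at 18.6, 9.18, 20.7, 16.8 and 15.8 CPM in WT and 0.992, 2.81 and 0 CPM in Meis1-flox/VE-Cre (-3.62 ± 0.53, edgeR, adjusted p = 0.00732). AI662270 was at 21.1, 31.7, 20.7, 13.5 and 21.1 CPM and 1.98, 5.62 and 0 CPM (-3.08 ± 0.53, adjusted p = 0.0186). Homer2, a scaffold protein, was at 33.4, 24.3, 13.3, 19.1 and 35.1 CPM and 7.44, 11.7 and 5.44 CPM (-1.61 ± 0.35, adjusted p = 0.0393). Against WT 5 the 3 genes were at -3.59 (adjusted p = 0.0551), -3.03 (0.0904) and -2.08 (0.0183), of which that of AI662270 was lost when called doublets were left out (0.18). Slc35d3 kept its call without any 1 library, while AI662270 lost it without Meis1-flox/VE-Cre 1 (adjusted p = 0.121) and Gp9 and Homer2 without Meis1-flox/VE-Cre 1 or 3 (up to 0.155 and 0.171).

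Low levels of these genes were not seen in EMP cells alone. In Megakaryocytes, Gp9 was at 460 to 1040 CPM in WT and 64.0 to 364 CPM in Meis1-flox/VE-Cre, and Slc35d3 at 96.2 to 221 CPM and 2.46 to 107 CPM. In Myeloid cells AI662270 was 2.54 lower on the log2 scale (adjusted p = 0.0102) and Slc35d3 3.49 lower (0.0388). The genotype effect on Gp9, Slc35d3, AI662270 and Homer2 was not called as differing between EMP and Myeloid or EHT cells, with adjusted p of at least 0.583.

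The megakaryocyte list as a whole did not move in 1 direction. Of 15 tested genes 2 rose, 1 fell, and the median was 0.16, and -0.16 against WT 5. The rises were Nfe2, a transcription factor of platelet formation, by 0.51 ± 0.13, and the tetraspanin Cd9 by 0.33 ± 0.09 (0.38 and 0.34 against WT 5, not called). Both calls were lost without Meis1-flox/VE-Cre 1 or 2 (adjusted p up to 0.272), that of Nfe2 also without WT 2 or 4, and that of Cd9 without any library but WT 5. Pf4, platelet factor 4, was at 5.28 to 11.2 CPM in WT 1 to 4, 59.9 CPM in WT 5 and 14.9 to 16.8 CPM in Meis1-flox/VE-Cre, and was called against WT 5 alone (-1.93 ± 0.23, adjusted p = 0.00266). A single cell held 84 of the 159 Pf4 UMIs of WT 5 (52.8%) and 67.6% of those of Meis1-flox/VE-Cre 3. Itga2b, which encodes CD41, differed by -0.12 ± 0.20.

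Gpc3, a glypican of the cell surface, was at 51.9, 47.1, 39.4, 31.2 and 32.4 CPM in WT and 7.94, 9.84 and 2.27 CPM in Meis1-flox/VE-Cre. The lowest WT library, at 31.2 CPM, lay well above the highest Meis1-flox/VE-Cre library. The log2 fold change was -2.60 ± 0.33 (edgeR, adjusted p = 0.00564) and -2.27 ± 0.42 against WT 5 (adjusted p = 0.0428), and the call held without any 1 library. Prg2, the major basic protein of eosinophils, was at 68.6, 66.6, 116, 2.10 and 42.2 CPM in WT and 1.49, 0 and 0 CPM in Meis1-flox/VE-Cre, and is named after its values were seen. It passed the test in both comparisons (adjusted p = 0.0449 and 0.000226) but came from 10 of 390 WT cells and 1 of 357 Meis1-flox/VE-Cre cells. A single cell held between 72.8 and 100% of the Prg2 UMIs of each library that had any, and the first call was lost without any 1 of the 3 Meis1-flox/VE-Cre libraries (adjusted p up to 0.171).

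Of 8 fetal program genes, Hmga2 and Igf2bp2 fell and 6 were not called, beside 2.06% of all genes that fell, with a median of -0.11. Against WT 5 none of the 8 was called. Hmga2, a chromatin protein of fetal stem cells, was at 220, 211, 290, 245 and 280 CPM in WT and 95.7, 171 and 67.1 CPM in Meis1-flox/VE-Cre (log2 fold change -1.16 ± 0.24, edgeR, adjusted p = 0.0358). Against WT 5 it was -1.32 ± 0.34, which was not called (adjusted p = 0.18). Igf2bp2, an RNA-binding protein, was at 34.3 to 56.3 CPM in WT, lowest in WT 5, and 17.9 to 25.3 CPM in Meis1-flox/VE-Cre (-1.21 ± 0.18, adjusted p = 0.00904, and -0.73 against WT 5, adjusted p = 0.624). The Hmga2 call was lost without Meis1-flox/VE-Cre 1 (adjusted p = 0.168). Lin28b, which maintains the fetal program, was at 29.2 to 45.8 CPM in WT and 25.8 to 36.8 CPM in Meis1-flox/VE-Cre.

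Replication-dependent histone genes gave more called falls than any other list, and for them WT 5 lay with the Meis1-flox/VE-Cre libraries. Of 15 tested, 6 were lower in the first comparison, beside 2.06% of all genes, and 0 in the second, with medians of -0.76 and -0.10. Hist1h1b was at 941, 1060, 1130 and 1250 CPM in WT 1 to 4, 277 CPM in WT 5 and 222, 215 and 354 CPM in Meis1-flox/VE-Cre. WT 5 thus lay within the Meis1-flox/VE-Cre range. The log2 fold change was -1.82 ± 0.39 (edgeR, adjusted p = 0.0373), and -0.06 against WT 5 (0.998). For Hist1h1d the sign turned, from -1.31 to 0.10 against WT 5. Calls of Hist1h1a, Hist1h1b, Hist1h4d and Hist2h2ac were lost without Meis1-flox/VE-Cre 1 or 2 (adjusted p up to 0.187), and those of Hist1h1d and Hist1h1e without any 1 of the 3 (up to 0.222), that of Hist1h1d also without WT 1, 2 or 4.

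The cell cycle lists gave few calls. None of 20 S phase genes was called (median -0.11, and -0.12 against WT 5). Of 20 G2 and M phase genes, Cdk1, Bub1, Bub1b and Cenpe were called as lower, by 0.41 to 0.57 in size, with a list median of -0.28, and 0 were called against WT 5 (median -0.06). Each of the 4 calls was lost in at least 6 of the 8 fits that left out 1 library, with adjusted p up to 0.280. Ccnd2, the gene of cyclin D2, was at 78.9 to 148 CPM in WT and 47.6 to 82.0 CPM in Meis1-flox/VE-Cre, and was called at -0.73 ± 0.21 (adjusted p = 0.0993) and at -1.20 ± 0.25 against WT 5 (0.0671). Its first call was lost without any 1 of the 3 Meis1-flox/VE-Cre libraries or WT 1, 2 or 3 (adjusted p up to 0.275).

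Other abundant genes that fell in the first comparison were not called against WT 5. Tspo, a protein of the outer mitochondrial membrane, was at 538 to 695 CPM in WT, lowest in WT 5, and 260 to 402 CPM in Meis1-flox/VE-Cre (-0.88 ± 0.15, adjusted p = 0.0176, and -0.71 against WT 5, 0.403). Hp, the gene of haptoglobin, was at 74.3 to 121 CPM in WT and 29.9 to 55.5 CPM in Meis1-flox/VE-Cre (-0.93 ± 0.21, and -0.83 against WT 5). Rbm38, Bmyc, Rbpms, Ascc3 and Lzic had log2 fold changes between -0.77 and -0.71 and, against WT 5, between -0.61 and -0.23. Each of these 7 calls was lost without Meis1-flox/VE-Cre 1, with adjusted p between 0.114 for Tspo and 0.229 for Ascc3. Without Meis1-flox/VE-Cre 2, Hp, Rbm38, Rbpms, Ascc3 and Lzic lost it, and without Meis1-flox/VE-Cre 3, Hp, Bmyc, Rbpms, Ascc3 and Lzic. Without WT 1 it was lost for Bmyc and Ascc3, and for Ascc3 also without WT 2 or 3, with adjusted p up to 0.287.

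**Figure D3:**
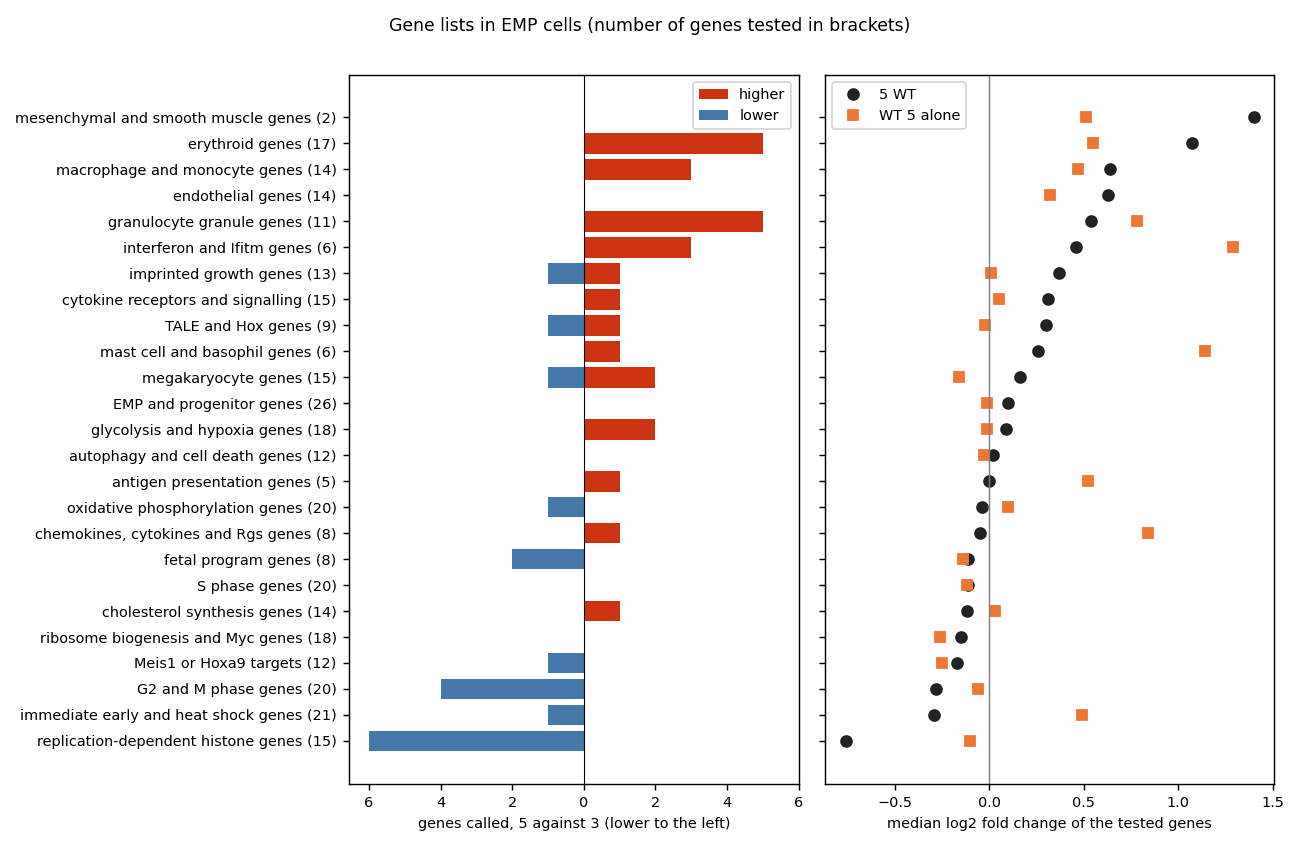
Gene lists in EMP cells, with the number of genes tested in brackets. Left, genes called higher (red, to the right) and lower (blue, to the left) in 5 WT against 3 Meis1-flox/VE-Cre libraries. Right, median log2 fold change of the tested genes against 5 WT libraries (black circles) and WT 5 alone (orange squares). The histone list moves from a median of -0.76 to -0.10 and the interferon list from 0.46 to 1.29.

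Genes of the progenitor state gave almost no calls. None of 26 tested EMP and progenitor genes was called in the first comparison and 1, Fcgr3, in the second, with medians of 0.10 and -0.01. Kit, the receptor for stem cell factor, was at 70.0 to 96.0 CPM in WT and 49.7 to 82.1 CPM in Meis1-flox/VE-Cre (log2 fold change -0.35 ± 0.16, edgeR, adjusted p = 0.284). Myb and Runx1, transcription factors required for definitive blood, differed by -0.24 ± 0.12 and 0.26 ± 0.09 (adjusted p = 0.32 and 0.184). Against WT 5, Kit, Myb and Runx1 were at -0.32, -0.22 and 0.25. Gata2 and Spi1, which act in progenitors and in the myeloid branch, differed by 0.29 ± 0.12 and 0.17 ± 0.13.

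Lists of metabolism and housekeeping also gave few calls. Of 20 oxidative phosphorylation genes 1 was called (Sdhd, lower), of 18 glycolysis and hypoxia genes 2 (Pkm and Slc2a3, higher), of 14 cholesterol synthesis genes 1 (Fdft1, higher), and of 18 ribosome biogenesis and Myc genes and 12 autophagy and cell death genes 0. Although uncalled, the ribosome biogenesis and Myc genes summed to 13700 to 14800 CPM in WT and 11900 to 12600 CPM in Meis1-flox/VE-Cre. Of these 18 genes 14 were lower and 4 higher, with a median of -0.15, and -0.26 against WT 5. Among 15 cytokine receptor and signalling genes 1 rose, Csf2ra, a chain of the GM-CSF receptor (1.28 ± 0.30, and 0.47 against WT 5). Among 8 chemokine, cytokine and Rgs genes 1 rose, the receptor Ccr1 (1.64 ± 0.37, and 2.84 against WT 5, adjusted p = 0.147), and among 5 antigen presentation genes 1 rose, B2m. Of 13 imprinted growth genes Slc38a4 rose and Dlk1 fell. Dlk1 was at 8.5 to 18.6 CPM in WT 1 to 4, 2.26 CPM in WT 5 and 0.992 to 1.81 CPM in Meis1-flox/VE-Cre. None of 14 endothelial genes (median 0.63) or 2 mesenchymal and smooth muscle genes was called. The calls of Sdhd, B2m and Slc38a4 were each lost in 7 of 8 fits that left out 1 library, those of Pkm and Fdft1 in 6, Csf2ra in 5, Dlk1 in 3, and Ccr1 and Slc2a3 in 2, with adjusted p up to 0.269.

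Some genes were called against WT 5 alone, and for each of these some other WT libraries lay higher than WT 5. Fos, an immediate early gene, was at 161, 177, 127, 57.7 and 31.7 CPM in the WT libraries, against 94.7, 104 and 117 CPM (1.74 ± 0.24 against WT 5, edgeR, adjusted p = 0.00812, and -0.08 ± 0.42 in the first comparison). S100a6, a calcium-binding protein, was at 29.6 to 98.5 CPM in WT 1 to 4, 10.2 CPM in WT 5 and 34.2 to 39.9 CPM in Meis1-flox/VE-Cre (1.89 ± 0.29, adjusted p = 0.0145). A single cell held 81.5 and 63.2% of the S100a6 UMIs of WT 3 and WT 4. Klf6 and Id2, which are transcriptional regulators named after their values were seen, were 1.31 ± 0.24 and 3.30 ± 0.46 higher than in WT 5, and 0.26 and 1.3 in the first comparison. Id2 was at 4.41, 2.07, 15.3, 20.3 and 2.26 CPM in the WT libraries, with 76.7% of the UMIs of WT 4 in a single cell, and at 18.6 to 24.8 CPM in Meis1-flox/VE-Cre. Fam46a was at 66.7, 74.2, 21.7, 31.7 and 25.6 CPM in the WT libraries and 75.8 to 108 CPM in Meis1-flox/VE-Cre (1.77 ± 0.28, adjusted p = 0.0183, and 0.95 in the first comparison, 0.179). Of 21 immediate early and heat shock genes, 1 was lower in the first comparison (Hsph1) and 2 higher in the second (Fos and Klf6), with medians of -0.29 and 0.49. The Hsph1 call was lost in 6 of the 8 fits that left out 1 library, with adjusted p up to 0.236.

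To see whether the genotype acted alike in other cells, the effect in EMP cells was set against that in 488 EHT cells, which pass from endothelium to blood, and in 2397 Myeloid cells of the same libraries. The effect differed between EMP and EHT cells for 40 of 10270 genes, being higher in EMP for 28 (0.273%) and lower for 12 (0.117%). It differed between EMP and Myeloid cells for 85 of 11372 genes, being higher for 56 (0.492%) and lower for 29 (0.255%). The Ifitm genes stood out against EHT. Ifitm1 was at 243 to 677 CPM in WT EHT cells and 292 to 420 CPM in Meis1-flox/VE-Cre EHT cells, a log2 fold change of -0.42, and its effect in EMP was 3.12 ± 0.48 higher (edgeR, adjusted p = 0.00299). For Ifitm2 the effect was 1.28 ± 0.10 higher in EMP than in EHT (3.29e-07) and 0.55 ± 0.09 higher than in Myeloid cells (0.0158). Ifitm3 rose in Myeloid cells by 1.26 (adjusted p = 0.0014), and its effect in EMP was 1.25 ± 0.16 higher than in EHT (0.000601). With WT 5 as the only WT library these 3 differences from EHT were called again, with adjusted p of at most 4.12e-05.

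Several other rises differed from EHT or Myeloid cells. S100a10 had an effect 1.1 ± 0.11 higher in EMP than in EHT (edgeR, adjusted p = 2.48e-05) and 0.47 ± 0.09 higher than in Myeloid cells (0.0268). Cited2 was 0.61 ± 0.11 above EHT (0.0164) and 0.75 ± 0.10 above Myeloid (0.00158), and both differences were called with WT 5 alone (0.00808 and 0.0252). The Cited2 rise was not particular to EMP cells. In Megakaryocytes, whose genotype effect was not fitted, Cited2 was at 153 to 339 CPM in WT and 366 to 625 CPM in Meis1-flox/VE-Cre. Ptms, the gene of parathymosin, named after its values were seen, differed by 1.86 ± 0.27 from EHT and 1.96 ± 0.34 from Myeloid cells. Meis2 was already present in EHT cells of both genotypes, at 13.6 to 26.7 CPM in WT and 25 to 32.9 CPM in Meis1-flox/VE-Cre, and its effect in EMP was 5.01 ± 0.58 above EHT (0.000126). That difference rests on the near absence of Meis2 from WT EMP cells and is no measure of size. Lgals9 and Tyrobp were 1.23 ± 0.15 and 0.54 ± 0.10 above Myeloid cells (0.00101 and 0.0204), but with WT 5 alone neither was called (0.206 and 0.305).

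Among the falls, Gpc3 and Hmga2 were lower in EMP cells but not in EHT, whereas Myeloid cells also had lower means of both. In Myeloid cells Gpc3 was at 8.93 to 10.8 CPM in WT and 1.91 to 5.57 CPM in Meis1-flox/VE-Cre. Hmga2 was at 49.2 to 214 CPM and 36.3 to 70.1 CPM there, which overlap. Gpc3 was at 11.4 to 23.4 CPM in WT EHT cells and 12.6 to 30.5 CPM in Meis1-flox/VE-Cre EHT cells, and the difference of effects was -2.83 ± 0.53 (edgeR, adjusted p = 0.0172, and 0.00304 with WT 5 alone). For Hmga2 it was -1.41 ± 0.22 (0.00299, and 0.000101 with WT 5 alone). Meis1 had a log2 fold change of -0.34 in EHT (adjusted p = 0.46) and -0.86 in Myeloid cells (0.135). Its effect in EMP was 0.92 ± 0.20 lower than in EHT (0.0781), which was not called with WT 5 alone (0.334), and the difference from Myeloid cells was not called (-0.40 ± 0.22, 0.55). The count against Myeloid cells was 31 without Meis1-flox/VE-Cre 1, 38 without Meis1-flox/VE-Cre 3 and 136 without WT 5, and that against EHT was 19, 26 and 25 without Meis1-flox/VE-Cre 1, 2 and 3.

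**Figure D4:**
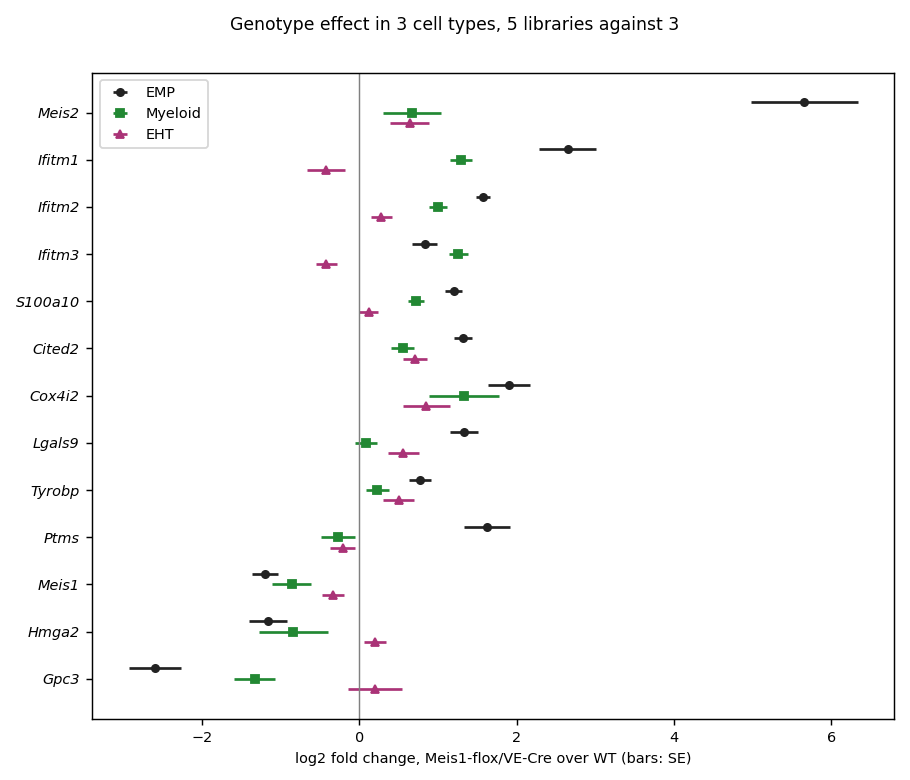
Genotype effect, as log2 fold change of Meis1-flox/VE-Cre over WT with standard errors, in EMP (black circles), Myeloid (green squares) and EHT (purple triangles) cells, 5 libraries against 3. Ifitm1 is at 2.65 in EMP, 1.29 in Myeloid and -0.42 in EHT cells, while Gpc3 is at -2.60, -1.33 and 0.20.

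The 6 antibody tags gave the surface level of proteins used to sort blood progenitors, as the log2 ratio of the mean tag count per EMP cell over that per vEC cell of the same library. WT 4 had no tag counts, and CD44 was counted in WT 5 and the Meis1-flox/VE-Cre libraries only. CD43, a sialomucin of blood cells, was at 3.74, 3.85, 4.17 and 5.26 in WT 1, 2, 3 and 5, and at 5.91, 6.16 and 5.63 in Meis1-flox/VE-Cre. The groups did not overlap, and WT 5 was nearest to the Meis1-flox/VE-Cre libraries. The means differed by 1.65 (exact permutation, two-sided, p = 0.0571, smallest possible 0.0286). CD41 was at 3.32, 2.99, 3.70 and 3.16 in WT and 4.41, 3.93 and 3.92 in Meis1-flox/VE-Cre, a difference of 0.80 (exact permutation, p = 0.0571). As a share of the counts of all tags but CD44, however, CD41 was 3.66 percentage points lower (exact permutation, p = 0.0286).

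The other tags overlapped or had too few libraries. CD27 was at 0.83, 0.69, 0.16 and -0.44 in WT and -1.05, -0.28 and -0.99 in Meis1-flox/VE-Cre (difference -1.08, exact permutation, p = 0.0857). CD117, the product of Kit, differed by 0.18 (exact permutation, p = 0.629) and CD45, the common leukocyte antigen, by 0.36 (exact permutation, p = 0.457). CD44 was at 5.68 in WT 5 and 5.36, 5.31 and 4.43 in Meis1-flox/VE-Cre, where the smallest possible p of an exact permutation test is 0.25. Of the 6 tags compared as ratios none passed a p of 0.05, before any adjustment. As a share of the counts of all tags but CD44, CD117 was 6.02 percentage points lower (exact permutation, p = 0.0286). For CD117 and CD41 the direction and the test thus depended on the scale. Such shares add to a whole. CD43 held 51.9 to 58.4% of it in WT 1 to 3, 71.9% in WT 5 and 73.2 to 78.8% in Meis1-flox/VE-Cre. The part of CD43 in the lower shares of CD117 and CD41 was not tested. Mean CD43 counts per vEC cell, the reference of the ratio, were 17.8 to 45.6 in WT 1 to 3, 5.75 in WT 5 and 1.76 to 6.14 in Meis1-flox/VE-Cre, and their part in the difference was not tested.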

How the data were processed

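The values are raw UMI counts as the authors deposited them, with no scaling applied, over 15168 cells with 28014 genes and 6 antibody tags, with the sample, genotype and cell type of each cell. Per the labels, libraries were made with 10x 3′ v3 chemistry, and the submitters' processing notes name Cell Ranger 3.0.2 and mm10. Values were checked and were whole and not negative. The fewest genes in a cell was 2001, as the authors had filtered cells.

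Counts of EMP cells were summed per library (2052847 to 5637244 UMIs) and compared in R 4.3.3 by edgeR 4.0.16 (filterByExpr, TMM, quasi-likelihood F test, two-sided, Benjamini-Hochberg adjusted p under 0.1), without a block. CPM are TMM-normalized. Standard errors are the log2 fold change divided by the square root of F. Differences of genotype effect between cell types were fitted with the library as a block. The fits were tested on simulated data. Shares and tags were compared by exact permutation of libraries, with 56 arrangements for 5 against 3 and 35 for tags. UMIs count molecules. A count of 0 was taken to allow 3, which covers counting error only. Cells were thinned to 5000 UMIs for shares of cells with a UMI, and 0 EMP cells were shallower. In each library up to 300 vEC cells, over vEC_1 to vEC_4, gave the background. Scrublet in scanpy 1.11.5 called 118 cells doublets, 7 of them EMP, which were kept and left out in an alternative.

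Members and gene lists were chosen with earlier results of these data known. Genes named are the up to 12 largest called rises and falls of the first comparison with a mean log2 CPM of at least 5 (0.5 added) and groups apart, up to 5 each way against WT 5, up to 4 each way whose effect differed between cell types, Meis1, and the called and up to 4 most abundant genes of each list. Others are said to be named after their values were seen, as are Fxyd5, Gata1, Klf1, Itga2b, Lin28b, Hoxa9, Fcer1a, Cma1, Gata2 and Pf4. Alternatives were RLE normalization, DESeq2 1.42.0, no low-count filter, other thresholds, thinned cells, doublets left out, depth class (median UMIs over all cells of a library above or below 20000) as a covariate, each library left out, and a replicate block. Python 3.11.15 was used for the rest. No pairing of libraries by replicate number was stated, and the main fits used none.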

Additional observations from a re-analysis of the deposited data

Results flagged for a closer look

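In 75 groups tested for a single library far from the rest, 6 were found, where chance gives about 3.75. WT 5 stood apart among WT libraries for Ms4a3 (76.5 CPM), Psme2 (143 CPM), Pf4 (59.9 CPM) and Hist1h1d (18.8 CPM). WT 1 stood apart for Hp (121 CPM) and WT 3 for the share of EMP cells with a Meis1 UMI (23.7%).

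The genotype effect differed between EMP and Myeloid cells, on the log2 scale with edgeR's adjusted p under 0.1, for Meis2 (4.88), Cited2 (0.75), Ifitm2 (0.55), Lgals9 (1.23), Ptms (1.96), S100a10 (0.47), Tyrobp (0.54) and Hba-a1 (4.16). The values of Meis2, here and against EHT, rest on its near absence from WT EMP cells. For H2-Aa (8.26) and Cxcl2 (8.0) the EMP UMIs were few, at no more than 5.95 and 4.46 CPM in any library. Fits of -20.42 for Gzmc, -19.75 for Gzmd, -18.65 for Gzme and -18.28 for Gzmg came from sums at or near 0 in the other libraries: 2 WT cells held all 2413 Gzmd UMIs. These 4 values are no measure of size.

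Between EMP and EHT cells the effect differed for Meis2 (5.01), Hbb-bh1 (3.16), Ifitm1 (3.12), Ifitm2 (1.28), Ifitm3 (1.25), Ptms (1.86), S100a10 (1.1), Cox4i2 (1.07), Cited2 (0.61), Meis1 (-0.92), Hmga2 (-1.41) and Gpc3 (-2.83). It also differed for Hs3st1 (4.74), Lonrf1 (3.75), Gzmb (-7.60), Cpa3 (-4.02) and Dqx1 (-2.14). For Cpa3 the effect in EHT cells was 5.94, from 0 to 2.41 CPM in WT and 8.34 to 234 CPM in Meis1-flox/VE-Cre.

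A row of the table named CreERT2, used in no comparison, held 0 UMIs in 8423 WT cells and 34 UMIs in 33 of 6745 Meis1-flox/VE-Cre cells. The labels name VE-Cre and no inducible Cre. Which construct these UMIs came from cannot be told from the counts, and the time and range of cells in which Cre acted were not tested.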

How the results depend on the processing

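The count of 435 genes in 5 WT against 3 Meis1-flox/VE-Cre libraries was 161 with cells thinned to 5000 UMIs, 50 with WT 5 as the only WT library, 7 with depth class as a covariate, 164 at an adjusted p under 0.05 and 7 with Bonferroni adjustment, and 44 to 828 without 1 library. Genes higher made up 56.6% of the 435, 65.2% with thinned cells, 78.0% with WT 5 and 85.7% with the covariate. With the covariate 6 of the 435 were called again, namely Ifitm1, Ifitm2, Cd200r3, Cited2, S100a10 and Tyrobp. RLE normalization gave 422, DESeq2 473, no filter 537 and leaving out doublets 411. The replicate block, on libraries 1 to 3, gave 1001 genes against 717 for the same libraries unblocked, a fit added after the data were seen. Deviations from the group means correlated at 0.160, 0.00973 and 0.148 between same-numbered libraries, and at -0.172 to 0.171 between the others. So few pairs cannot decide whether the numbers pair the libraries.

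The count of 50 against WT 5 was 32 with DESeq2, 123 without a filter, 28 at an adjusted p under 0.05 and 95 to 217 without 1 Meis1-flox/VE-Cre library, where the lone WT library is assumed to vary like the others. The count of 85 against Myeloid cells was 21 with WT 5 alone, 416 without a filter and 31 to 136 without 1 library. That of 40 against EHT was 136 without a filter and 19 to 47 without 1 library. The share of EMP cells turned to -4.62 percentage points among blood cells. As shares of the counts of all tags but CD44, most of which were CD43, CD117 turned to -6.02 and CD41 to -3.66 percentage points. Both had an exact permutation p of 0.0286, and CD45 turned to -4.54. With medians CD45 turned to -0.40 and CD43 passed 0.05 at 1.74. CD117 ranged from -0.14 to 0.37 without 1 library. Hist1h1d turned to 0.10 with WT 5 alone and 0.09 with the covariate. Of 1323 alternative values for 79 genes of the first comparison 973 kept sign and call, 348 kept the sign only and these 2 reversed. Of 337 for 43 genes against WT 5, 293 kept both and 44 the sign only. Median UMIs per EMP cell, from 14516 to 53132, limit what low genes can show, and the cause of these shifts was not tested.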
